A study of Mus musculus with 2 samples.

Results

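The genes of 10 proteins of the Z-disc were examined in the diaphragm of late mouse embryos: the alpha-actinins Actn2 and Actn3, telethonin (Tcap), the myozenins Myoz1 and Myoz2, myotilin (Myot), the PDZ-LIM genes Ldb3 and Pdlim3, the muscle LIM protein gene Csrp3 and desmin (Des). The members were all probe sets whose single gene symbol in the platform annotation was one of these names, which gave 14 of 45101 probe sets. All 14 lay above the floor on mean signal (log2 5.52), and the 10 genes were 10 of 14093 genes so measured. The material was diaphragm muscle from RP58-/- and RP58+/+ embryos of the C57/BL6 strain at E18.5, close to birth, with 1 array for each genotype. RP58 is a zinc finger repressor, now called Zbtb18. The sources used here give neither the deleted part of the gene nor how many embryos a sample holds.

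The Z-disc marks the border of each sarcomere, the contractile unit of striated muscle. Actin filaments from neighbouring sarcomeres overlap there and are cross-linked by alpha-actinin, and the end of titin is anchored in the same lattice. Other Z-disc proteins stabilise this lattice, tie it to desmin filaments and the cell membrane, or bind signalling enzymes such as calcineurin.

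Values are log2 signals deposited by the authors after RMA, a method that corrects background, makes the distributions of the arrays equal and summarises the probes of a probe set. A difference is the RP58-/- signal minus the RP58+/+ signal. With 1 array per genotype there is no spread between animals, no test was possible, and no difference has a replicate check. In place of a test, a gene was counted as lower or higher when it differed by at least 1.5-fold (0.58 on the log2 scale). The only repeat measurement was that of several probe sets for a gene, whose differences had a pooled SD of 0.28 over 5675 genes. Differences are relative to the median gene, which lay at -0.003. In bulk tissue, fewer muscle cells and less RNA per muscle cell cannot be told apart.

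The 2 samples differed in other respects too. The probe set of Zbtb18 had a log2 signal of 9.21 on the RP58-/- array and 8.91 on the RP58+/+ array, and where it lies relative to the deletion is not given, so it does not check the labels. Xist was at 6.96 on the RP58-/- array and at 11.47 on the RP58+/+ array. The Y-linked gene Eif2s3y went the other way, at 8.58 on the RP58-/- array and 3.59 on the RP58+/+ array. Sex-linked signal thus differed along with the genotype label, and sex and genotype cannot be told apart. The 24 poly-A control probe sets had a median difference of -0.75, and the 18 hybridisation control probe sets one of -0.04. For 3 genes read at both ends, the difference at the 3′ end minus that at the 5′ end was taken. It was 0.65 for Pcx, 0.22 for Actb and -0.06 for Gapdh, so the samples may also differ in RNA quality, which was not tested. Skeletal muscle markers were present on both arrays: all 10 were above the floor, among them Ckm at 12.11 on the RP58-/- array and 13.53 on the RP58+/+ array.

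The Z-disc genes were lower on the RP58-/- array. By the brightest probe set, 9 of 10 were lower by at least 1.5-fold, against 6.51% of all genes above the floor. None was higher, against 3.83% of all genes. The median difference of the 10 genes was -1.90 (3.72-fold lower), or -1.15 (2.22-fold lower) on a scale set to the poly-A controls, and the single values ran from -2.15 to -0.50. Of the 10, 8 were lower by at least 2-fold, against 2.31% of all genes, and 5 by at least 4-fold, against 0.333%. On the scale of the poly-A controls 8 were lower by at least 1.5-fold, against 1.29% of all genes. The counts at 2-fold and 4-fold were 5 and 0 there, beside which no share of all genes was taken. With the mean over the probe sets of a gene 8 were lower by at least 1.5-fold, against 5.58% of all genes. The counts at 2-fold and 4-fold were then 7 and 3, again with no share taken. All 10 had a mean signal of 9 or more, and among the 2874 genes as bright as that, 11.2% were lower by at least 1.5-fold. All 10 were below 0 relative to the median gene, against 50.4% of all genes. With poly-A scaling Csrp3 (0.24) and Myoz2 (0.11) were above 0 and the other 8 still below. The median of all genes was itself 0.74 on that scale, above both Csrp3 and Myoz2.

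**Figure D1:**
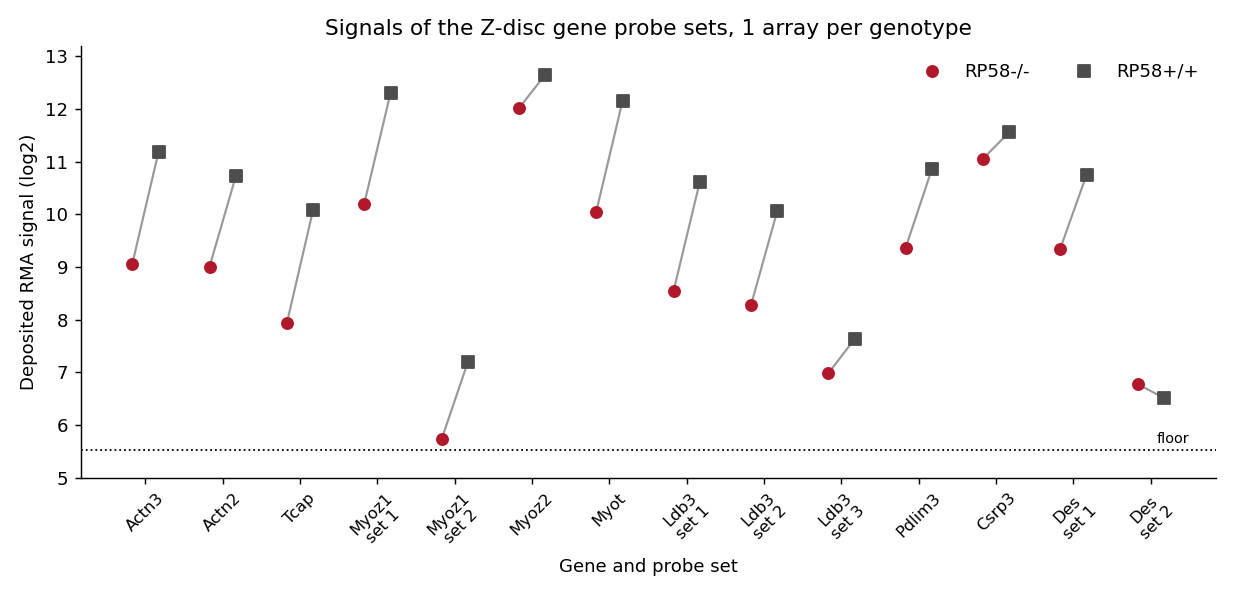
Deposited log2 RMA signal of each of the 14 Z-disc probe sets on the RP58-/- array (red circles, left of each pair) and the RP58+/+ array (grey squares, right), with a line joining the values of a probe set. Of the 14, 13 are lower on the RP58-/- array, and the weaker probe set of Des is the exception. On a scale set to the poly-A controls, where the median of all genes is 0.74, 10 are lower. The dotted line is the floor on mean signal.

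The 250 bases upstream of the outermost annotated start are given for genes that differed much and little, to set them side by side. These are Ldb3 and Actn2, the lowest of the members searched, and Myoz2 and Csrp3, the members nearest to 0. The sequences are from RefSeq (build GRCm38.p6) and run 5′ to 3′ on the strand of the gene. Of 10 members, 6 were searched. Actn3, Tcap and Myoz1 had no entry, and Myot, which was lower than Ldb3, was left out of the search. Capitals mark matches on either strand to 4 motifs: the E-box CANNTG, to which MyoD-type factors bind, the core ACATCTG of the site known for RP58, which contains an E-box, the MEF2 motif and the CArG box of serum response factor.
Ldb3, chr14:34588682-34588931, minus strand: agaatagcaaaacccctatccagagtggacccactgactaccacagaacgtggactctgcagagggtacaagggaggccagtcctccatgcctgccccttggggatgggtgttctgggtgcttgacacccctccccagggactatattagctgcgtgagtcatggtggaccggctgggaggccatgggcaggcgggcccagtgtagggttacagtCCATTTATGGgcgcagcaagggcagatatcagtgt
Actn2, chr13:12340733-12340982, minus strand: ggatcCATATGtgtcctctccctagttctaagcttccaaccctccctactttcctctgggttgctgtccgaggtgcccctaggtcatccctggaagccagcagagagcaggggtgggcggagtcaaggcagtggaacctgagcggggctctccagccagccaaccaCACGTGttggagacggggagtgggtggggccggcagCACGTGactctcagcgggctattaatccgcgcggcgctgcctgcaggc
Myoz2, chr3:123034988-123035237, minus strand: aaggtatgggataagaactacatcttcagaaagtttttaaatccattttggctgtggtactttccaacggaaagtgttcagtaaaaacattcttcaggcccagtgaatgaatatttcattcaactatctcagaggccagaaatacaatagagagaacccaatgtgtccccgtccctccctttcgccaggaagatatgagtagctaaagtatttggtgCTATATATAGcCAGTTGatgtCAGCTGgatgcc
Csrp3, chr7:48848052-48848301, minus strand: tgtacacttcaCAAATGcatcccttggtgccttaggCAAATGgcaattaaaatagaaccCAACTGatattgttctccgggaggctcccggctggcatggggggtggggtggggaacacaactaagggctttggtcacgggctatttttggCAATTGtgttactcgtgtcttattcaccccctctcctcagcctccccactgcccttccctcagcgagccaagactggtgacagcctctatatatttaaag

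The core ACATCTG was in 0 of the 6 windows and in 3.81% of 27025 promoter windows of the same length. An E-box was in 5 of 6, against 66.1% of all windows. The Ldb3 window held a CArG box that begins 35 bases before the start, a motif found in 1.41% of windows, and no E-box. Myoz2 held a MEF2 motif that begins 33 bases before its start, found in 0.522% of windows, with E-boxes at 22 and 12 bases. The E-boxes of Actn2 were at 245, 84 and 48 bases and those of Csrp3 at 239, 214, 191 and 100 bases. The windows of Des and Pdlim3, which are not shown, held 2 E-boxes each. These matches describe the letters of the windows only.

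Alpha-actinins, the cross-linkers of actin at the Z-disc, were both lower. Actn3, the isoform of fast fibres, had a log2 signal of 9.05 on the RP58-/- array and 11.19 on the RP58+/+ array, a difference of -2.13 (4.39-fold lower). Actn2, the isoform found in all fibre types and in the heart, had 9.01 on the RP58-/- array and 10.73 on the RP58+/+ array, a difference of -1.72 (3.3-fold lower). The difference of Actn3 minus that of Actn2 was -0.41. Each gene was read by 1 probe set, so neither value has a second reading, and whether the isoforms differ was not tested.

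Telethonin caps the end of titin in the Z-disc. Tcap had a log2 signal of 7.94 on the RP58-/- array and 10.09 on the RP58+/+ array, a difference of -2.15 (4.44-fold lower). This was the lowest of the 10 differences and rank 28 from the lowest among 14093 genes. It rests on 1 probe set of the _a_at kind, which reads several transcripts of a gene.

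Myozenins, also called FATZ proteins or calsarcins, bind alpha-actinin, telethonin and the phosphatase calcineurin. Myoz1, the member of fast fibres, had a log2 signal of 10.20 on the RP58-/- array and 12.31 on the RP58+/+ array, a difference of -2.10 (4.3-fold lower). Its other probe set had 5.73 on the RP58-/- array and 7.20 on the RP58+/+ array, a difference of -1.47. Both probe sets were lower by more than 2-fold. Myoz2, the member of slow fibres and heart, had 12.02 on the RP58-/- array and 12.65 on the RP58+/+ array, a difference of -0.63 (1.55-fold lower). The difference of Myoz1 minus that of Myoz2 was -1.47, or -1.15 with the mean over the probe sets of Myoz1.

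Myotilin is an immunoglobulin-domain protein that bundles actin filaments with alpha-actinin. Myot had a log2 signal of 10.05 on the RP58-/- array and 12.15 on the RP58+/+ array, a difference of -2.10 (4.29-fold lower). Myot, Myoz1, Actn3, Tcap and Ldb3 differed by nearly the same amount, from -2.15 to -2.07, and held ranks 28 to 41 from the lowest.

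The PDZ-LIM proteins bind alpha-actinin through their PDZ domain. Ldb3, known as ZASP or Cypher, had a log2 signal of 8.55 on the RP58-/- array and 10.62 on the RP58+/+ array at its brightest probe set, a difference of -2.07 (4.21-fold lower). The next probe set had 8.28 on the RP58-/- array and 10.06 on the RP58+/+ array, a difference of -1.79. The dimmest had 6.98 on the RP58-/- array and 7.63 on the RP58+/+ array, a difference of -0.65. All 3 probe sets were lower by at least 1.5-fold, though not by the same amount, and which transcripts each reads was not examined. Pdlim3, known as ALP, had 9.36 on the RP58-/- array and 10.86 on the RP58+/+ array, a difference of -1.50 (2.82-fold lower). The difference of Ldb3 minus that of Pdlim3 was -0.58 at the brightest probe sets and -0.01 with the mean over the probe sets of Ldb3.

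Csrp3 encodes the muscle LIM protein, which binds alpha-actinin and telethonin and is made in heart and in slow fibres. It was the only one of the 10 genes inside the 1.5-fold rule, with a log2 signal of 11.06 on the RP58-/- array and 11.56 on the RP58+/+ array, a difference of -0.50. Its signal on the RP58-/- array was thus 70.5% of that on the RP58+/+ array, against 22.5% for Tcap.

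Desmin forms the intermediate filaments that link the Z-discs of neighbouring myofibrils. Its brighter probe set had a log2 signal of 9.35 on the RP58-/- array and 10.75 on the RP58+/+ array, a difference of -1.40 (2.65-fold lower). The weaker one had 6.78 on the RP58-/- array and 6.51 on the RP58+/+ array, a difference of 0.27. The 2 probe sets of Des therefore disagreed in direction, and their mean difference of -0.57 fell short of 1.5-fold. Both are assigned to the same transcript accession in the annotation.

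**Figure D2:**
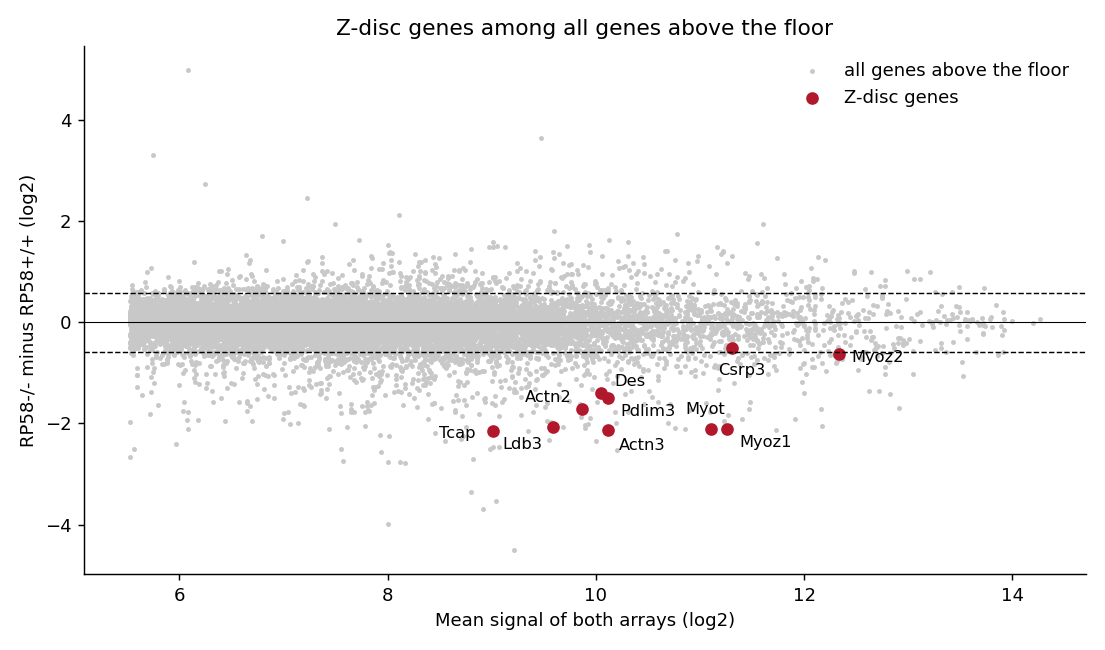
Difference of RP58-/- minus RP58+/+ signal (log2, vertical) against the mean signal of both arrays (log2, horizontal) for 14093 genes above the floor (grey) and the 10 Z-disc genes (red); dashed lines mark 1.5-fold. Of the Z-disc genes, 8 lie at or below -1.40, and Myoz2 and Csrp3 lie near the lower dashed line. Both are above 0 on a scale set to the poly-A controls, where the median of all genes is 0.74.

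The differences of the 10 genes had an SD of 0.62 among themselves. The fast-fibre genes Actn3 and Myoz1 were at -2.13 and -2.10, and the genes known from slow fibres and heart, Myoz2 and Csrp3, at -0.63 and -0.50. Lists of other genes were in the same order. The median over 9 fast-fibre genes above the floor was -1.69, and 8 of them were lower by at least 1.5-fold, against 6.51% of all genes. With poly-A scaling this median was -0.94, with 6 lower, against 1.29% of all genes on that scale. The median over 9 slow-fibre genes was -0.575, with 4 lower. Under poly-A scaling it was 0.17 with 3 lower, where the median of all genes was 0.74. Both lists were uneven. Among fast-fibre genes the values ran from Pvalb (-3.69) to Mylpf (-0.59) and Myh2 (-0.18). Among slow-fibre genes Myl3 (-1.87), Mb (-1.77) and Casq2 (-1.62) were far lower than Tnnt1 (-0.21) and Atp2a2 (0.20). The 5 probe sets of Atp2a2 ran from -0.72 to 0.30. Actn2, Tcap and Ldb3 are not restricted to fast fibres, and all 3 were lower by over 3-fold. Whether the fast and slow members differ could not be tested with 1 array per genotype.

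Several of the 10 genes are also made in heart or smooth muscle. Of 7 heart markers, 5 were above the floor, and none of these differed by 1.5-fold. Of all genes 6.51% were lower and 3.83% higher, and 5 markers are too few to set 0 apart from these shares. The part of heart or smooth muscle in the Z-disc signals was not tested. Myh6, the atrial and adult ventricular myosin of the mouse, had a log2 signal of 3.82 on the RP58-/- array and 3.84 on the RP58+/+ array, and Nppa had 4.81 on the RP58-/- array and 4.79 on the RP58+/+ array, all under the floor. The other 5, among them Myl7 at 8.33 on the RP58-/- array and 8.22 on the RP58+/+ array, had differences from -0.15 to 0.35. The summed linear signal of the 7 was 763.6 on the RP58-/- array and 700.6 on the RP58+/+ array. For Des, which smooth muscle also makes, Acta2 differed by -0.01 and the 5 smooth muscle markers had a median of 0.12, with Myh11 (0.67) higher and Smtn (-0.76) lower.

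Most widely expressed relatives of these proteins were not lower. Of 12 such relatives, 4 were below 0, against 50.4% of all genes, and 8 above 0. On a scale set to the poly-A controls 10 were above 0, but the median of all genes was itself 0.74 there. By the 1.5-fold rule 2 were lower (6.51% of all genes) and 2 higher (3.83% of all genes), with a median of 0.22. Beside Actn3 and Actn2, the alpha-actinins of non-muscle cells, Actn1 and Actn4, differed by 0.22 and 0.36. Beside Csrp3, its relatives Csrp1 and Csrp2 differed by 0.31 and 0.60. Beside Des, the filament genes Vim and Nes differed by 0.08 and 0.30. Palladin (Palld), related to myotilin, was at -0.22.

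Among PDZ-LIM relatives the values ran both ways. Pdlim2 was at 1.05 (2.07-fold higher), Pdlim4 at 0.23 and Pdlim1 at -0.46. The 2 that were lower were Pdlim5 (-1.92) and Pdlim7 (-1.16). Both of these, known as ENH and Enigma, are also Z-disc proteins of striated muscle. Their probe sets disagreed, from -2.66 to 0.12 over the 4 of Pdlim5 and from -1.16 to 0.36 over the 3 of Pdlim7. Averaged over probe sets, 1 of the 12 relatives was lower by at least 1.5-fold.

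A further 35 genes of the Z-disc and its attachments were listed, of which 33 were read above the floor. Of these, 18 were lower by at least 1.5-fold and 0 higher, against 6.51% and 3.83% of all genes. Below 0 were 28, against 50.4% of all genes. On a scale set to the poly-A controls 16 were below 0, but the median of all genes was itself 0.74 there. The median of the 33 genes was -0.72 (0.02 on that scale), closer to 0 than the -1.90 of the 10 genes. The difference between the lists was not tested. The lowest were the integrin-binding protein melusin (Itgb1bp2, -2.12), nebulin (Neb, -1.85), synaptopodin-2 (Synpo2, -1.82), which binds alpha-actinin, and myopalladin (Mypn, -1.72), a relative of myotilin. The 3 probe sets of Synpo2 ran from -1.82 to -0.12 and the 2 of Mypn from -1.72 to -0.23.

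Other members of that list are named for contrast, after their values were seen. Titin (Ttn), whose end Tcap caps, was at -0.92, and its 5 probe sets ran from -1.76 to -0.28. The ubiquitin ligase genes Trim63 and Trim54 were at -1.61 and -1.40, and the LIM protein genes Fhl1 and Fhl2 at -0.94 and -0.72. The chaperone Cryab, which protects desmin, was at -0.90. The actin-capping genes of the barbed filament end were inside the 1.5-fold rule at the brightest probe set, with Capza1 at 0.06, Capzb at -0.02 and Capza2 at -0.27. Their probe sets ran from -0.20 to 0.06 for Capza1, from -0.02 to 0.33 for Capzb and from -0.60 to -0.27 for Capza2. Proteins that attach desmin were above 0, with plectin (Plec) at 0.35, synemin (Synm) at 0.16 and syncoilin (Sync) at 0.38, although the 2 probe sets of Sync ran from -0.35 to 0.38. The third myozenin, Myoz3, had a log2 signal of 5.87 on the RP58-/- array and 5.93 on the RP58+/+ array, close to the floor.

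**Figure D3:**
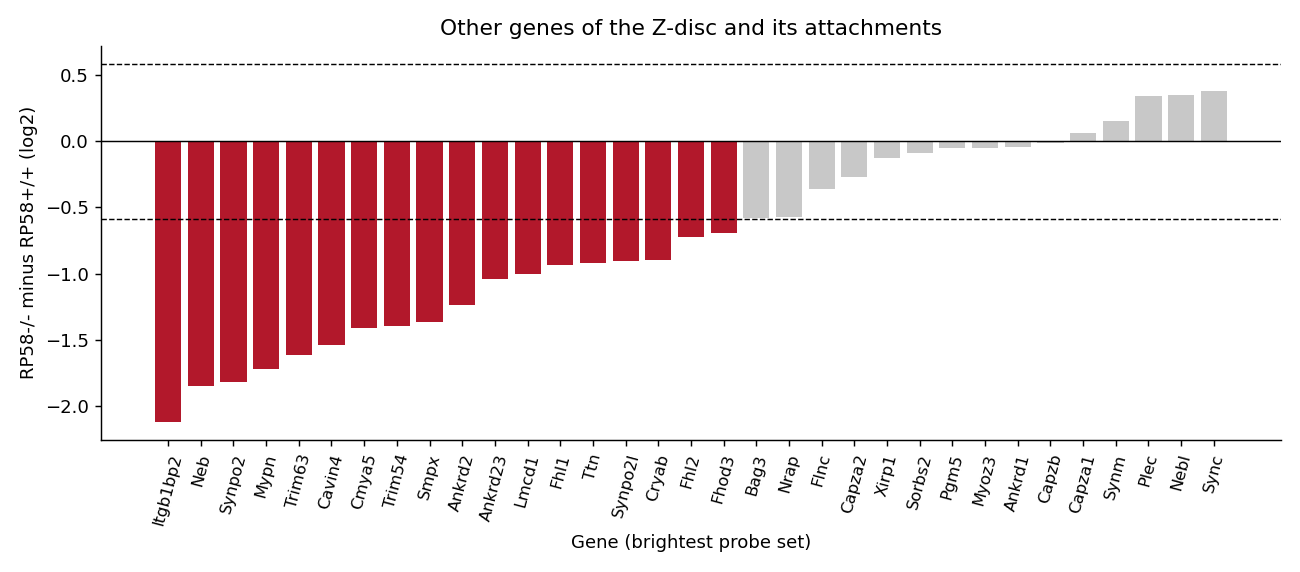
Difference of RP58-/- minus RP58+/+ signal (log2) for 33 other genes of the Z-disc and its attachments, sorted; red bars are the 18 lower by at least 1.5-fold and dashed lines mark 1.5-fold. The values run from -2.12 for Itgb1bp2 to 0.38 for Sync, and 28 are below 0, against 50.4% of all genes. Of these, 16 stay below 0 on a scale set to the poly-A controls, where the median of all genes is 0.74.

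Of 12 genes of the calcineurin pathway, whose enzyme the myozenins bind, 0 were past 1.5-fold in either direction. Of all genes 6.51% were lower and 3.83% higher, and a list of 12 is too short to set 0 apart from these shares. Their median was -0.29, and 10 were below 0, against 50.4% of all genes. On a scale set to the poly-A controls none was below 0 and their median was 0.46, but the median of all genes was itself 0.74 there. The widest differences at the brightest probe set were those of the calcineurin regulator Rcan2 (-0.52) and the transcription factor Nfatc2 (-0.50). Next came the catalytic subunit Ppp3cb (-0.48) and the regulatory subunit Ppp3r1 (-0.45). The 4 probe sets of Ppp3cb ran from -0.79 to 0.07, so some were past 1.5-fold.

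Other parts of the sarcomere were lower alongside the Z-disc. Among 15 thin filament genes the median was -1.36 and 11 were lower by at least 1.5-fold (6.51% of all genes), led by the filament-end genes Tmod4 (-2.32), Lmod2 (-2.26) and Lmod3 (-2.11), and Tmod1 (-1.84). Among 7 M-band and myosin-binding genes the median was -1.52 and 5 were lower, led by Mybpc2 (-3.36). With poly-A scaling the medians were -0.61 for the thin filament, with 8 lower, and -0.77 for the M-band and myosin-binding genes, with 4 lower. On that scale 1.29% of all genes were lower. The median of -1.90 over the 10 Z-disc genes was below both of these, but that over the 33 other Z-disc genes, -0.72, was above both. Which part of the sarcomere was lowest thus depends on the genes listed, and the distances between the lists were not tested. The genes above the floor whose difference came nearest to the Z-disc median over the 2 arrays were Tm6sf1 (-1.89), Mybpc1 (-1.91), Ttc9 (-1.91) and Pygm (-1.92).

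Many, but not all, genes that mark liver, lung epithelium and mesothelium were higher on the RP58-/- array. By the 1.5-fold rule 3.83% of all genes were higher, or 70.9% with poly-A scaling, and the counts that follow are without that scaling. Of all genes 50.4% were then below 0. All 10 liver markers were above 0 and 6 were higher by at least 1.5-fold. Their summed linear signal was 120300 on the RP58-/- array and 84268 on the RP58+/+ array. All 6 lung epithelium markers above the floor were above 0 and 4 were higher, with a summed signal over 9 markers of 3331 on the RP58-/- array and 774.8 on the RP58+/+ array. The surfactant gene Sftpc carried most of this sum, with a log2 signal of 11.30 on the RP58-/- array and 7.65 on the RP58+/+ array. Without it the sum of the other 8 was 817.4 on the RP58-/- array and 573.6 on the RP58+/+ array. Of 8 mesothelium markers, 7 were above 0 and 4 were higher, with sums of 12637 on the RP58-/- array and 8169.6 on the RP58+/+ array. Of 7 leukocyte markers, 6 were above 0 and 2 were higher. The 6 fibroblast markers had a median of 0.12 with none past 1.5-fold, and the 5 endothelial markers a median of -0.33 with 1 lower, Cldn5 (-0.69). No marker is at 0, since RMA gives every probe set a signal. The part of these tissues in the lower Z-disc signal was not tested. The 10 skeletal muscle markers had a median of -0.82 and 7 were lower by at least 1.5-fold, against 6.51% of all genes. With poly-A scaling their median was -0.07 and 4 were lower, against 1.29% of all genes. Without it they ran from Myf6 (-2.46) to Myog (0.09), with Myod1 at -0.18. The summed linear signal of the 10 Z-disc genes was 11498 on the RP58-/- array and 29369 on the RP58+/+ array, a ratio of 0.391. That of the skeletal muscle markers was 18238 on the RP58-/- array and 36245 on the RP58+/+ array, a ratio of 0.503. Acta1 and Ckm, at log2 13.95 and 13.53 on the RP58+/+ array, carried most of the marker sum, and the 2 ratios were not tested against each other.

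**Figure D4:**
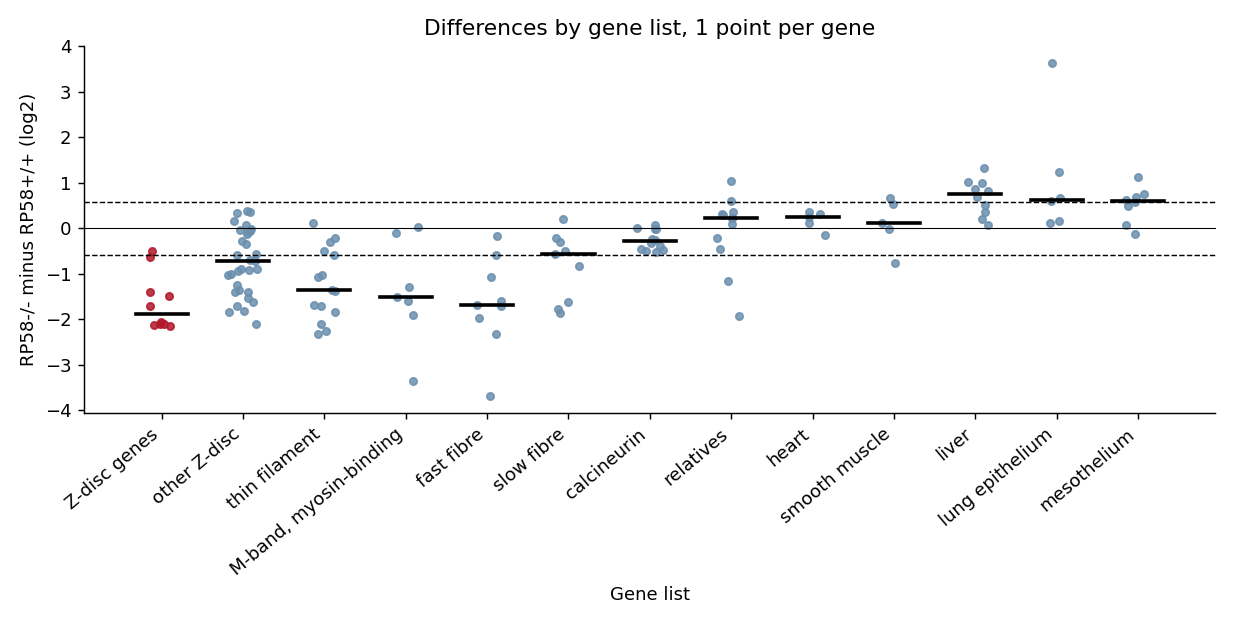
Difference of RP58-/- minus RP58+/+ signal (log2), 1 point per gene above the floor, for the 10 Z-disc genes (red) and 12 other lists (blue), with the median of each list as a black bar and dashed lines at 1.5-fold. The Z-disc median lies at -1.90, and the medians of liver, lung epithelium and mesothelium markers lie at 0.75, 0.63 and 0.60.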

How the data were processed

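Diaphragm RNA was hybridised to 1 Affymetrix array per genotype. Per the series' design text the arrays were mouse 430A 2.0, but this name conflicts with the deposited table, whose probe sets are those of a larger design of that family; its annotation named them here. The authors deposited log2 signals made by RMA, per the same text. The submitters' processing notes name Affymetrix Expression Console 1.1. The sources do not state which arrays were normalised together.

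Of 45101 probe sets, 34945 carried 1 gene symbol and were used, while 932 with several and 9160 with none were left out. The brightest probe set of a gene (mean of both arrays) stood for it if at or above the 40th percentile. The members and 16 other lists (7 gene lists, 9 marker lists) were chosen with earlier results of these data known. Named are all 10 members, all relatives, up to 4 genes of each other list with the widest difference, and the 4 genes nearest to the median of the members; marker genes and genes given for contrast were picked after their values were seen. The calculations were checked on simulated data. The alternatives were the mean over probe sets, other floors, centring on the median, loess (fraction 0.3), scaling to poly-A controls, leaving out _s_at, _x_at and _a_at probe sets, and a 2-fold rule. Python 3.11.15, pandas and statsmodels were used.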

Additional observations from a re-analysis of the deposited data

How the results depend on the processing

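The number of Z-disc genes lower by at least 1.5-fold was 9 of 10 and ranged from 8 to 9 over the alternatives, including 8 of 9 without _s_at, _x_at and _a_at probe sets, which leaves out Tcap. Averaging the probe sets of a gene moved the median difference from -1.90 to -1.61 and left 1 relative lower by at least 1.5-fold in place of 2. Scaling to the poly-A controls raised every difference by 0.75, so that 182 genes were lower and 9990 higher of 14093, against 918 lower and 540 higher without it. On that scale the median of all genes was 0.74 and the Z-disc median -1.15. Myoz2 was at 0.11 and Csrp3 at 0.24 (both reversed in sign). Of 33 other Z-disc genes 9 were lower by at least 1.5-fold, as was 1 relative. A 2-fold rule left 11 of 33 other Z-disc genes. Floors, centring on the median and loess kept the counts of the 3 lists within 1.5 times. No paired analysis was possible because each genotype had 1 array. The counts at 2-fold and 4-fold under each alternative were added after seeing the data. The number of arrays, the scaling and the choice of probe set all limit these values, and all 14 Z-disc probe sets had a mean signal above the floor.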
